A study of Mus musculus with 2 samples.

Results

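This account covers 36 genes of the cullin ubiquitin ligase system, taken by name from the 34745 gene rows of the deposited tables: 8 cullins, 4 RING subunits and adaptors, 8 substrate receptors, 7 subunits of the COP9 signalosome and 9 genes of the NEDD8 pathway. All 36 had 1 row each and reached 1 CPM, the unit of counts scaled to library size that is used for levels here, in at least 1 library, as did 13464 rows in all. RNA came from splenic CD4+ regulatory T (Treg) cells of C57BL/6 mice at 2 weeks of age, sorted by the YFP reporter of Foxp3Cre. The wild-type library came from poh1+/+ Foxp3Cre+ mice and the knockout library from poh1fl/fl Foxp3Cre+ mice, so both carried the Cre allele, which the Foxp3 gene drives. POH1 is the product of Psmd14, the deubiquitinase of the proteasome lid. There was 1 library per genotype, and the labels used here do not say how many mice it held, so no difference has a replicate check and none was tested.

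A cullin is the scaffold of a modular ubiquitin ligase. One end holds an adaptor and a substrate receptor that picks the protein to be degraded, and the other end holds a RING subunit that brings in the ubiquitin-loaded enzyme. The ligase is switched on when NEDD8, a small ubiquitin-like protein, is joined to the cullin by its own E1 and E2 enzymes, and it is switched off when the COP9 signalosome cuts NEDD8 away. COP9 is built much like the proteasome lid, and its catalytic subunit belongs to the same JAMM metalloprotease family as POH1. CAND1 binds cullins that lack NEDD8 and lets their receptors be exchanged. In T cells these ligases act on cell cycle inhibitors, on the inhibitors of NF-kB and on the factors NRF2 and HIF.

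The wild-type library held 18124611 counts and the knockout library 14544212. Psmd14 was at 1619 counts (89.4 CPM) in wild-type and 463 counts (31.8 CPM) in knockout cells, 2.81-fold lower in the latter (2.53 to 3.12), the direction of its label. The values in parentheses here and below are 95% counting intervals from the counts of the libraries, which leave out the spread between mice. A marker is counted as higher or lower where this interval of its ratio lay wholly beyond 1.5-fold. By that rule 9.58% of the 13464 genes were higher and 12.3% lower in the knockout library. T cell markers were present in both libraries, at summed levels of 4437 and 4401 CPM over 10 genes. Lck was the most abundant of them by CPM in the wild-type library and Cd2 in the knockout library. Here and for the lists below, the most abundant gene is by CPM, which takes no account of gene length, so another gene can lead per length. Foxp3 was at 671 and 1073 CPM, one of the 4 of 7 Treg markers that were higher, while 2 were lower. The most abundant Treg marker was Ctla4 in the wild-type and Il2ra in the knockout library. Other marker lists differed between the libraries. Of 16 cell division genes 16 were lower in the knockout library (summed level 3138 and 1221 CPM, Mki67 the most abundant and 0 genes at 0 counts). Of 12 B cell markers 11 were lower (165 and 44.5 CPM, Cd79b the most abundant, none at 0). Of 14 erythroid markers 12 were lower and 1, Gata1, was higher (355 and 271 CPM, Tfrc the most abundant, none at 0). Tfrc held 196 and 134 CPM of these sums and Gata1 29.7 and 108 CPM. The sums therefore do not show the size of the drop in the 12 lower genes. Both CD8 markers, Cd8a and Cd8b1, were higher (18.8 and 47.4 CPM), and of 13 macrophage markers 1 was higher (357 and 419.6 CPM, Vcam1 the most abundant, none at 0). Dendritic cell markers were lower for 5 of 9 measured genes (62.3 and 60.6 CPM, Bst2 the most abundant). Xcr1, Clec9a and Cd209a were at 0 in the knockout library. Neutrophil markers were lower for 4 of 5 measured genes (17.9 and 6.32 CPM, Ngp the most abundant). S100a8, Camp and Ly6g, with 12, 26 and 3 wild-type counts, were at 0 in the knockout library, and Elane was at 0 in both. Retnlg, below 1 CPM in both, went the other way, with 0 wild-type and 10 knockout counts. Stromal markers were lower for 3 of 5 (177 and 190.3 CPM, of which Pecam1, the most abundant, held 170 and 189 CPM). Pdgfrb and Lyve1, with 9 and 1 wild-type counts, were at 0 in the knockout library, and Col3a1 was at 0 in both. NK cell markers were lower by the rule for 0 of 3 (19.8 and 15.4 CPM, Nkg7 the most abundant). All 3 had log2 ratios below 0, and the ratio of Nkg7 was 0.796 (0.663 to 0.953). Ncr1, with 2 wild-type counts, was at 0 in the knockout library, and Klra8, Klra4 and Klre1 were at 0 in both. The part of these lists in the ratios below was not tested. Fewer cells of a type and less RNA per cell cannot be told apart in such bulk samples.

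In 32 of the 36 genes the difference between the libraries stayed short of the limit used here, and the exceptions were the atypical cullins Cul7 and Cul9, the NEDD8 ligase helper Dcun1d2 and the F-box gene Skp2. In the absence of a test, a gene counted as higher or lower where the counting interval of its ratio lay wholly beyond 1.5-fold. By it 3 of 36 members (8.33%) were higher in the knockout library, against 9.58% of the 13464 genes at 1 CPM or more. Only Skp2 (2.78%) was lower, against 12.3% of those genes. Both shares were below those of all genes, and the median log2 ratio (knockout over wild type) was 0.01 over the members and -0.01 over all genes. Of the 36 members, 24 lay between the quartiles of all genes, log2 ratios of -0.44 and 0.39.

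With the interval beyond 2-fold, Cul7 and Cul9 were higher and 0 members lower, against 4.34% and 6.63% of all genes. With the interval beyond a 25% increase or a 20% decrease, 6 members were higher (Cul7, Cul9, Btrc, Keap1, Dcun1d1 and Dcun1d2) and 2 lower (Skp2 and Fbxw11), against 16.7% and 19.5% of all genes. The same 6 members were higher, and Skp2 lower, where the ratio itself and not its interval had to pass 1.5-fold, against 17.4% and 19.7% of all genes. The 1.5-fold rule parted genes of similar ratio. Dcun1d2, the member nearest inside it, had a lower interval end of 1.54, and Dcun1d1, the nearest outside, one of 1.45.

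**Figure D1:**
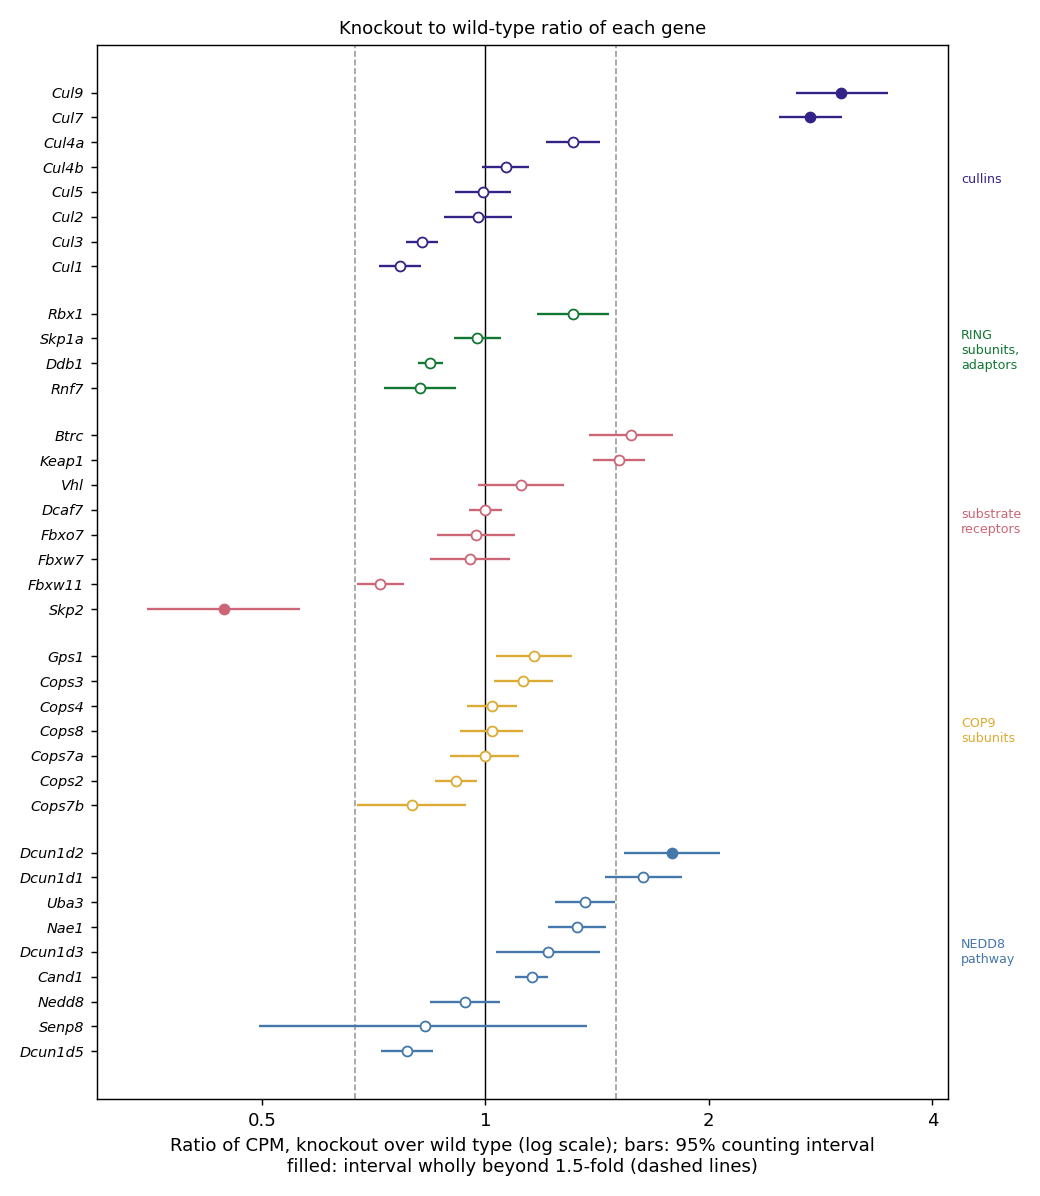
Ratio of CPM, knockout over wild type, for the 36 genes by role (log axis), with 95% counting intervals and dashed lines at 1.5-fold in either direction. The 4 filled points are the genes whose interval lies wholly beyond 1.5-fold, Cul9, Cul7 and Dcun1d2 on the right and Skp2 on the left.

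Cul7 and Cul9 had the highest ratios of the 36 genes. They are large, atypical cullins that bind p53 and differ from the others in structure. Cul7 had 599 counts (33.1 CPM) in wild-type and 1318 counts (90.6 CPM) in knockout cells, 2.74-fold higher (2.49 to 3.02). Cul9 had 279 counts (15.4 CPM) and 676 counts (46.5 CPM), 3.02-fold higher (2.62 to 3.48). The intervals of the 2 ratios overlap. By log2 ratio Cul9 ranked 516 and Cul7 626 from the top of the 13464 genes.

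Cul7 and Cul9 also lie close together on chromosome 17 of mm10, Cul9 on the minus strand at chr17:46500572-46546388 and Cul7 on the plus strand at chr17:46650337-46664364, with 103948 bases between them. Both are annotated as protein-coding, and no exon of either overlaps another gene. Between them lie 4 protein-coding genes at 1 CPM or more. Of these 4 genes 0 passed the 1.5-fold rule, against 9.58% higher and 12.3% lower among all genes, so 0 of so few says little. Their median log2 ratio was 0.46, above the upper quartile of all genes, 0.39. Their ratios were 0.678 for Srf (0.6397 to 0.719), the serum response factor gene, 2.08 for Ptk7 (1.32 to 3.300), 1.53 for Klc4 (1.34 to 1.75) and 1.23 for Mrpl2 (1.018 to 1.496). The neighbourhood was looked at after the ratios of Cul7 and Cul9 had been seen.

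The promoters of Cul7 and Cul9 are shown because these were the members with the highest ratios. They run from 250 bases before to 50 bases after the start of the gene in RefSeq (GRCm38.p6, the build also called mm10), at chr17:46650088-46650387 on the plus strand for Cul7 and chr17:46546339-46546638 on the minus strand for Cul9, written 5′ to 3′ along the gene. Capitals mark matches to any of the 7 motifs listed with the COP9 promoters further on.
Cul7: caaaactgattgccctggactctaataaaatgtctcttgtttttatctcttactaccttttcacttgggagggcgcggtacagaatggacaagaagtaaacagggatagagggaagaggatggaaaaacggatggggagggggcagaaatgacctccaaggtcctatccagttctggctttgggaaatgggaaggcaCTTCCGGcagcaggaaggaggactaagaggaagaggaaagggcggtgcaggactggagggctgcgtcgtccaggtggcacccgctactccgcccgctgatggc
Cul9: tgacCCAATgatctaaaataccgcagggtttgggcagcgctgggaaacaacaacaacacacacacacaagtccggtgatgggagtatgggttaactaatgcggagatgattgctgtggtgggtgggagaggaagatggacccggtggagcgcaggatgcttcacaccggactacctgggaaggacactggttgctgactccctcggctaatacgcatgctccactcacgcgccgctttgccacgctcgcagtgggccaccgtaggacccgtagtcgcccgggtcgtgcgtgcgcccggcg
The match in Cul7 is to the ETS core and the match in Cul9 is a CCAAT box. The windows had no motif match in common.

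The other 6 cullins had ratios between 0.767 and 1.31. Cul3, the scaffold for receptors with a BTB domain, was at 209 and 172 CPM, a ratio of 0.822 (0.781 to 0.865). Cul1, the scaffold of the SCF ligases, was at 132 and 102 CPM, a ratio of 0.767 (0.719 to 0.819). These were the lowest ratios among the cullins, and each interval lay below 1 without passing 1.5-fold. Cul2, which carries the VHL receptor, and Cul5, which carries SOCS-box receptors, were at 44.5 and 43.5 CPM and at 64.4 and 63.9 CPM, with ratios of 0.978 (0.8800 to 1.09) and 0.993 (0.9104 to 1.08). The paralogs of the DDB1-linked ligases were at 59.9 and 78.6 CPM for Cul4a and 87.03 and 92.7 CPM for Cul4b, with ratios of 1.31 (1.21 to 1.43) and 1.07 (0.9900 to 1.15). The median log2 ratio of the 8 cullins was 0.04, and their summed level was 645 CPM in wild-type and 689 CPM in knockout cells.

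Levels of different genes can be set side by side only per transcript length, for which the authors' FPKM, which divides a count by gene length and library size, was used. In the wild-type library Cul3 was the most abundant cullin at 33.3 FPKM, then Cul1 at 22.05, Cul4b at 15.1, Cul4a at 7.23, Cul2 at 6.28, Cul5 at 4.99, Cul7 at 2.901 and Cul9 at 0.878 FPKM. No neighbours in that order had overlapping counting intervals. In the knockout library the order was Cul3 at 27.4, Cul1 at 16.9, Cul4b at 16.1, Cul4a at 9.496, Cul7 at 7.95, Cul2 at 6.14, Cul5 at 4.96 and Cul9 at 2.65 FPKM, and the intervals of Cul1 and Cul4b overlapped. Cul7 stood below Cul2 and Cul5 in the first library and above both in the second, and its share of the summed cullin FPKM was 3.13% in wild-type and 8.68% in knockout cells. Cul3 held 35.9% and 29.9%. The gene lengths behind the authors' FPKM were 0.364 to 2.15 times the merged exon length in GENCODE M21. With the latter lengths Cul2 stood above Cul4a in the wild-type library, and Cul7 still stood below Cul2 and Cul5 there and above both in the knockout library.

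**Figure D2:**
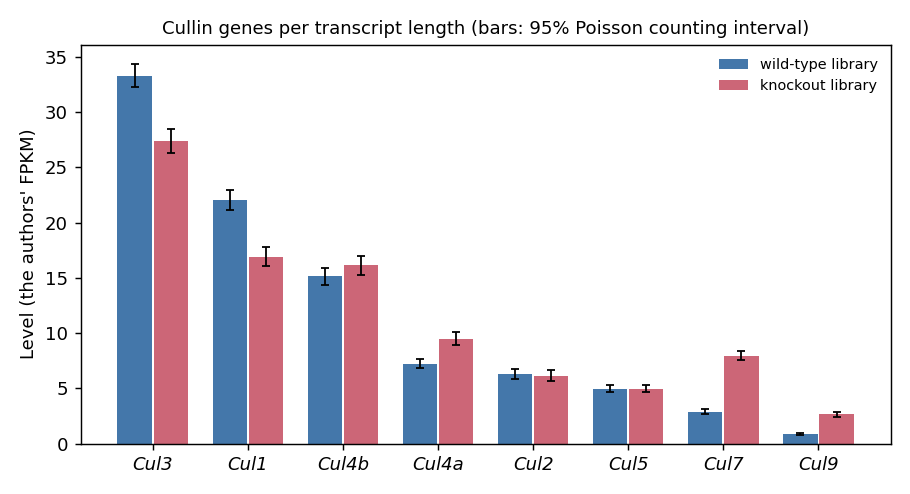
Level of the 8 cullin genes in each library as the authors' FPKM (linear axis from 0), with 95% Poisson counting intervals as black bars. The bars of Cul7 and Cul9 are taller in the knockout library, at 7.95 and 2.65 FPKM, than in the wild-type library, at 2.901 and 0.878 FPKM.

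The receptor known to work with CUL7 is the F-box protein FBXW8. Fbxw8, one of the other F-box genes below, was at 59.6 CPM in wild-type and 22.1 CPM in knockout cells, 2.69-fold lower (2.38 to 3.06), while Cul7 was higher. Exons of Fbxw8 overlap those of other annotated genes over 33.4% of their length, so its count is uncertain to that extent. The other partners of CUL7, Obsl1 and Ccdc8, were barely detected, with 12 and 12 counts for Obsl1 and 12 and 14 counts for Ccdc8, and their ratios of 1.245 (0.512 to 3.03) and 1.45 (0.624 to 3.44) give no direction at this depth. Obsl1 and Ccdc8 were looked up after the ratio of Cul7 was known.

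The RING subunits had ratios on opposite sides of 1. Rbx1, which serves most cullins, was at 34.9 CPM in wild-type and 45.8 CPM in knockout cells, a ratio of 1.31 (1.18 to 1.47). Rnf7, its relative that serves CUL5, was at 43.3 and 35.4 CPM, a ratio of 0.817 (0.7297 to 0.914). Neither passed 1.5-fold. The balance between them needs no scaling between libraries. The FPKM of Rbx1 was 0.897 times that of Rnf7 in the wild-type library (0.807 to 0.996) and 1.44 times in the knockout library (1.28 to 1.62), a shift of 1.61-fold (1.37 to 1.88). The shift does not depend on gene length, but which of the 2 was the more abundant does, and with GENCODE lengths Rbx1 stood below Rnf7 in both libraries. Neither adaptor gene passed the rule. Skp1a, which links F-box proteins to CUL1, was at 92.6 and 90.4 CPM (ratio 0.976, 0.907 to 1.05). Ddb1, the adaptor of the CUL4 ligases and the most abundant of the 36 genes by CPM, was at 348 and 293 CPM (ratio 0.843, 0.811 to 0.877).

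Among the substrate receptors Skp2 was the member past the rule. SKP2 is the F-box protein that marks the cell cycle inhibitor p27 for degradation. It had 274 counts (15.1 CPM) in wild-type and 98 counts (6.74 CPM) in knockout cells, 2.24-fold lower (1.78 to 2.86). Its lower level stood beside that of the cell division genes, of which 16 of 16 were lower with a median log2 ratio of -1.60, and of the B cell markers, 11 of 12 lower. Their part in the value of Skp2 was not tested. RefSeq lists 2 starts for Skp2, and the window with more CpG dinucleotides, at chr15:9140405-9140704 on the minus strand, is shown because Skp2 was the member with the lowest ratio.
Skp2: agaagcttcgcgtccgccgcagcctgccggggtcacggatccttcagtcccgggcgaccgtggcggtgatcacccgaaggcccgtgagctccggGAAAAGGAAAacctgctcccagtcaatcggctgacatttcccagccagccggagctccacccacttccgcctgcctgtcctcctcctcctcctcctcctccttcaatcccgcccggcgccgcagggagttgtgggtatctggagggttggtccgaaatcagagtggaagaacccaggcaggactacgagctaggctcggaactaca
The capitals mark a match to the core of the interferon-stimulated response element. None of the E2F words that were searched is in this window.

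The paired receptors of the NF-kB and beta-catenin pathways had ratios on opposite sides of 1. BTRC and FBXW11 are near copies that recognise the same phosphorylated motif, found in IkB and beta-catenin. Btrc had 421 counts (23.2 CPM) in wild-type and 531 counts (36.5 CPM) in knockout cells, a ratio of 1.57 (1.38 to 1.79). Fbxw11 had 2020 counts (111 CPM) and 1172 counts (80.6 CPM), a ratio of 0.723 (0.672 to 0.777). Neither passed the 1.5-fold rule alone. The FPKM of Btrc was 0.298 times that of Fbxw11 in the wild-type library (0.268 to 0.331) and 0.648 times in the knockout library (0.585 to 0.718), a shift of 2.17-fold (1.88 to 2.52), the largest among the 8 pairs of related genes compared. Fbxw11 was the more abundant of the 2 in both libraries, with GENCODE lengths too.

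Keap1, the CUL3 receptor that holds NRF2 low, was at 62.4 and 94.4 CPM, a ratio of 1.51 (1.398 to 1.64). Exons of Keap1 overlap the antisense gene Gm16754 over 10.9% of their length, and the library kit did not mark strand. The other 4 receptors had ratios whose intervals include 1. Dcaf7, a CUL4-linked WD40 protein, was at 183 CPM in the wild-type library with a ratio of 1.000 (0.95 to 1.05). Fbxw7, which targets cyclin E, MYC and NOTCH, was at 32.6 and 31.1 CPM (ratio 0.954, 0.842 to 1.08). Fbxo7, which also binds a proteasome regulator, was at 34.3 and 33.3 CPM (ratio 0.971, 0.861 to 1.095), and Vhl, the receptor for HIF, at 25.7 and 28.7 CPM (ratio 1.12, 0.977 to 1.28). Per length Dcaf7 was the most abundant receptor (27.6 and 27.6 FPKM) and Skp2 the least (1.36 and 0.607 FPKM), although Btrc was the least abundant in the wild-type library with GENCODE lengths. The median log2 ratio of the 8 receptors was -0.02, a sign that scaling by upper quartile turned to 0.02.

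The subunits of the COP9 signalosome had the narrowest range of log2 ratios of the 5 role groups, -0.33 to 0.22, with a median of 0.03. Of the 7 subunits 0 passed the rule, against 9.58% higher and 12.3% lower among all genes, so 0 of so few says little. Their summed level was 399 CPM in wild-type and 399 CPM in knockout cells. Gps1, which encodes the first subunit, was at 32.3 and 37.6 CPM, the highest ratio of the group at 1.16 (1.03 to 1.31). Cops3 was at 54.3 and 61.04 CPM, a ratio of 1.13 (1.03 to 1.23), with exons overlapped by other genes over 10.6% of their length. The ratios of Cops4, Cops8 and Cops7a were 1.021 (0.945 to 1.102), 1.020 (0.924 to 1.12) and 0.999 (0.898 to 1.11), with wild-type levels of 81.3, 49.9 and 42.9 CPM. Cops2, at 118 and 108 CPM, had a ratio of 0.913 (0.855 to 0.975).

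Cops7b had the lowest ratio of the group, 0.796 (0.672 to 0.941), at 20.03 and 15.9 CPM. Cops7a and Cops7b encode alternative forms of 1 subunit. The FPKM of Cops7a was 6.16 times that of Cops7b in the wild-type (5.44 to 6.98) and 7.74 times in the knockout library (6.65 to 8.99), a shift of 1.255-fold (1.03 to 1.53). Per length, Cops2 was the most abundant of the 7 subunits in both libraries (21.3 and 19.4 FPKM) and Cops7b the least (1.81 and 1.44 FPKM). In the wild-type library the neighbours Cops4 and Cops3, Cops3 and Cops7a, and Gps1 and Cops8 had overlapping counting intervals, and in the knockout library Cops4 and Cops3 did.

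The catalytic subunit gene Cops5 and its JAMM relative Cops6 lie outside the 36 genes. Cops5 was at 58.2 and 73.3 CPM, a ratio of 1.26 (1.15 to 1.37), and Cops6 at 67.3 and 68.9 CPM, a ratio of 1.025 (0.942 to 1.11). Neither passed 1.5-fold.

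The promoters of the COP9 genes were compared because these genes kept close to the same level in both libraries. Promoters matched 33 of the 36 genes by symbol, Cul2, Skp1a and Btrc being without a match. The 7 motifs, searched on both strands, were the E2F words TTTCCCGC, TTTGGCGC, TTTCGCGC and TTTGCCGC, the ETS core CCGGAAG, the CCAAT box, the cyclic AMP response element TGACGTCA, the interferon-stimulated response element GAAANNGAAA, the interferon-gamma activated site TTCNNNGAA and the antioxidant response element TGACNNNGC. The ETS core was in a promoter of 10 of the 33 member genes (30.3%), against 9.93% of 27025 genes and 20.4% of the 9528 genes that were at 1 CPM or more. Of the 7 COP9 genes 5 held it, and Cops4 and Cops7b did not. The windows of 31 bases around the match follow, with the match in capitals, each 5′ to 3′ along its gene (RefSeq, GRCm38.p6).
Gps1, chr11:120784261-120784291, plus strand: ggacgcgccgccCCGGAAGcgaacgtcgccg
Cops2, chr2:125859073-125859103, minus strand: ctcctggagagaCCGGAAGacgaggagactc
Cops3, chr11:59839905-59839935, minus strand: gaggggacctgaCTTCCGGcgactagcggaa
Cops7a, chr6:124965513-124965543, minus strand: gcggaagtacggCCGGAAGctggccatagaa
Cops8, chr1:90603285-90603315, plus strand: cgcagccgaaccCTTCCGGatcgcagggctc
The match is CCGGAAG in Gps1, Cops2 and Cops7a and its reverse complement CTTCCGG in Cops3 and Cops8. The ETS core was singled out after its share had been seen, and a match is a string of letters and not a shown binding site.

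Of the other motifs, the E2F words were in 2 of the 33 genes, Cops3 and Rbx1 (6.06%, against 4.74% of measured genes), and the cyclic AMP response element in Dcun1d3 and Rnf7 (6.06% against 3.67%). The CCAAT box was in 8 (24.2% against 43.1%), the antioxidant response element in 3 (9.09% against 17%) and the interferon-gamma activated site in 1, Skp2 (3.03% against 8.46%). In Skp2 this site and a CCAAT box lie in the window of the other start, at chr15:9155376-9155675, and not in the window shown above. The interferon-stimulated response element was in 4, Cul1, Fbxo7, Skp2 and Vhl (12.1% against 3.84%), of which Skp2 was lower in the knockout library and the other 3 had ratios between 0.767 and 1.12.

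Genes of the NEDD8 pathway had the highest median log2 ratio of the 5 role groups, 0.28 over 9 genes with 6 above 0, and 1 gene, Dcun1d2, passed the rule. NEDD8 is activated by a dimer of NAE1 and UBA3. Nae1 had 940 counts (51.9 CPM) in wild-type and 1004 counts (69.01 CPM) in knockout cells, a ratio of 1.33 (1.22 to 1.46). Uba3 had 861 counts (47.5 CPM) and 941 counts (64.7 CPM), a ratio of 1.36 (1.24 to 1.49). The interval of the shift between these partners includes 1, the FPKM of Nae1 being 0.8401 times that of Uba3 in wild-type and 0.821 times in knockout cells, a shift of 0.977-fold (0.8596 to 1.11). Both ratios stood short of 1.5-fold.

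Nedd8 itself was at 42.7 and 40.1 CPM, a ratio of 0.9397 (0.843 to 1.05). Exons of Nedd8 overlap those of Gmpr2 over 14.6% of their length. Senp8, the protease that trims the NEDD8 precursor, was the least abundant of the 36 genes, with 42 and 28 counts, and its ratio of 0.8303 (0.496 to 1.37) is too imprecise to give a direction. Cand1, the exchange factor, was at 166 and 192 CPM, a ratio of 1.15 (1.096 to 1.22).

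The 4 DCN1-like genes among the 36, whose proteins help pass NEDD8 to cullins, had ratios on both sides of 1. Dcun1d2 (chr8:13255963-13288131, minus strand, mm10) had 307 counts (16.9 CPM) in wild-type and 440 counts (30.2 CPM) in knockout cells, 1.79-fold higher (1.54 to 2.07). Dcun1d1 was at 26.7 and 43.5 CPM (ratio 1.63, 1.45 to 1.84) and Dcun1d3 at 17.3 and 21.03 CPM (ratio 1.21, 1.03 to 1.43). Dcun1d5 had a ratio below 1, with 1560 counts (86.1 CPM) and 982 counts (67.5 CPM), a ratio of 0.784 (0.723 to 0.8497). Dcun1d5 was also the most abundant of these 4 genes per length, at 71.7 and 56.2 FPKM, against 2.02 and 3.299 FPKM for Dcun1d1. The length behind its FPKM was 0.3903 times the merged exon length in GENCODE, and with the latter length Dcun1d5 still stood above the other 3 in both libraries.

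**Figure D3:**
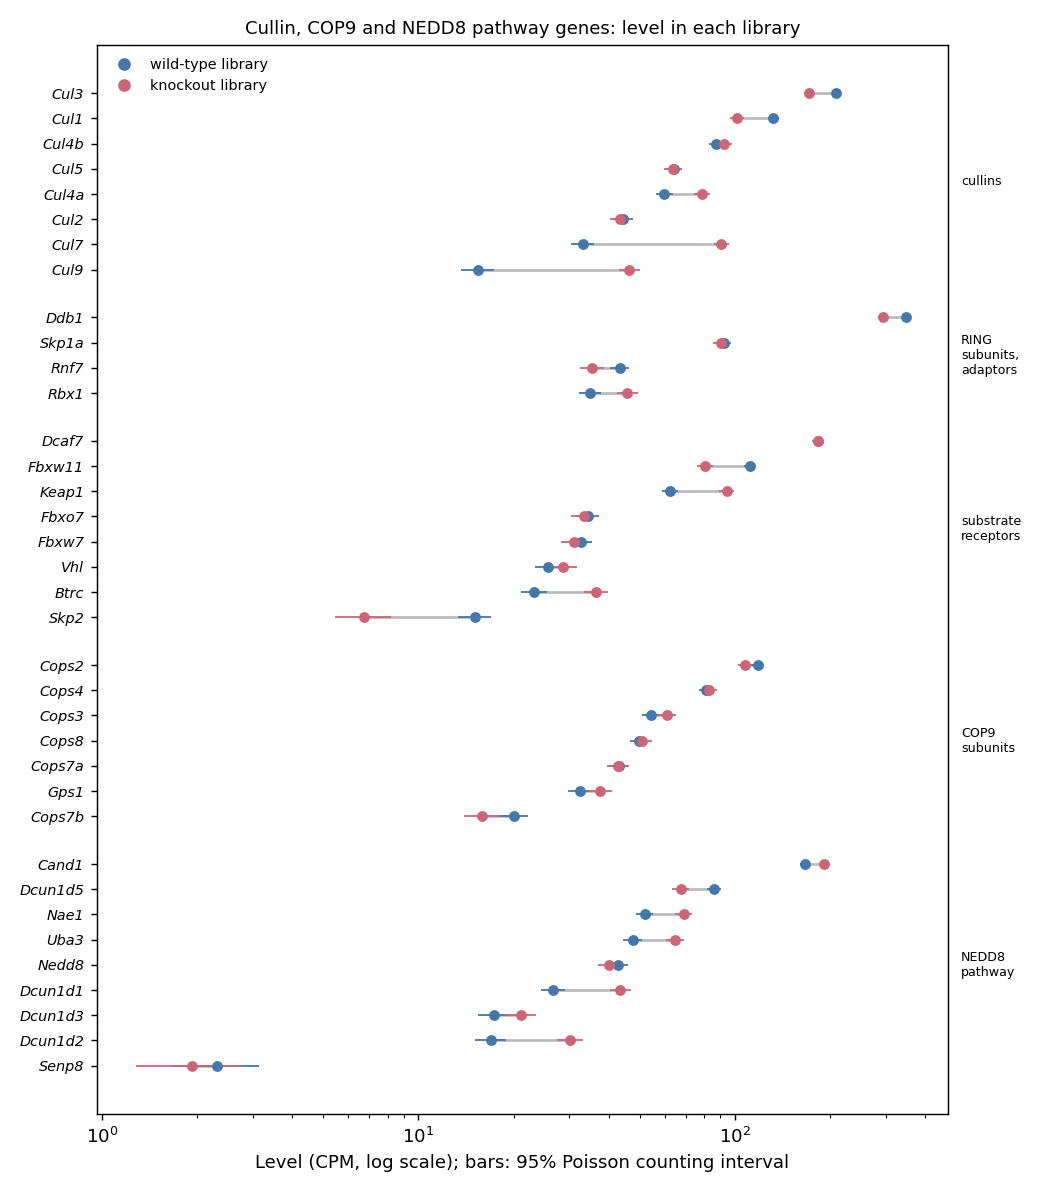
Level of each of the 36 genes in the wild-type (blue) and knockout (red) library in CPM on a log axis, by role, with 95% Poisson counting intervals. Cul7, Cul9 and Skp2 have the widest gaps between the libraries, and the 2 points of each COP9 subunit lie close together.

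The E2 genes of the pathway, which lie outside the 36, had ratios below 1, with an interval that includes 1 for Ube2m. Ube2m, the NEDD8 E2 that serves most cullins, was at 61.5 and 60.1 CPM, a ratio of 0.977 (0.893 to 1.07). Ube2f, the E2 that works with RNF7 on CUL5, was at 32.1 and 22.96 CPM, a ratio of 0.715 (0.623 to 0.819). Ube2f and Rnf7 thus both had ratios below 1 and Rbx1 a ratio above 1, each short of the rule.

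**Figure D4:**
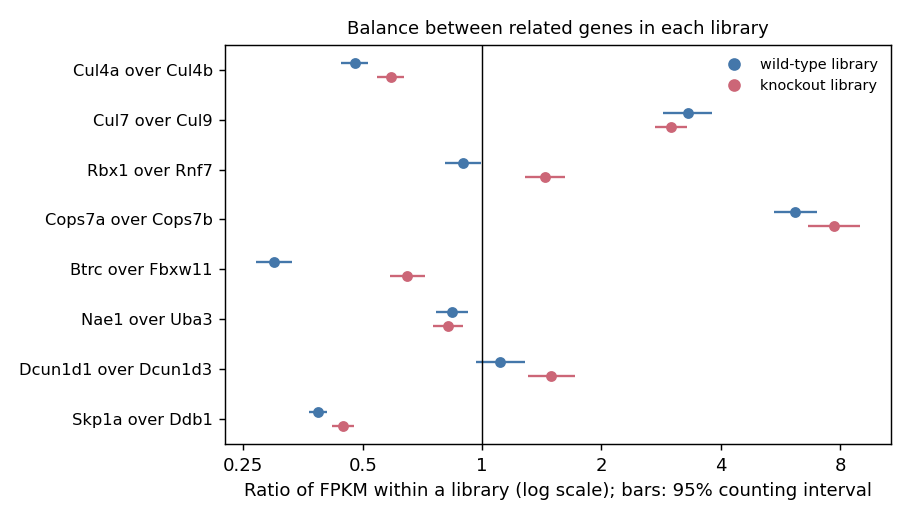
Ratio of FPKM between 8 pairs of related genes within each library (log axis), with 95% counting intervals. The points of Btrc over Fbxw11 and of Rbx1 over Rnf7 lie farther right in the knockout library, while those of Cul7 over Cul9 and of Nae1 over Uba3 overlap between the libraries.

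Of the 8 pairs, 6 had an interval of the shift that did not include 1. Besides those given, the FPKM of Cul4a was 0.477 times that of Cul4b in wild-type and 0.588 times in knockout cells, a shift of 1.23-fold (1.104 to 1.38). Dcun1d1 over Dcun1d3 shifted 1.34-fold (1.104 to 1.64) and Skp1a over Ddb1 1.16-fold (1.07 to 1.26). Cul7 over Cul9 was 3.303 (2.87 to 3.81) and 3.0 (2.73 to 3.29), a shift of 0.908-fold (0.766 to 1.08). These intervals cover counting error, and the pairs have no replicate check. How often pairs of other genes shift in this way was not computed, so the count of 6 cannot be read as a trait of these pairs.

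The other genes of the pathway were read by the same rule. Of 169 such genes at 1 CPM or more, 21 (12.4%) were higher and 12 (7.10%) lower by the 1.5-fold rule, against 9.58% and 12.3% of all genes, with a median log2 ratio of 0.09. Among 16 other COP9, NEDD8 and adaptor genes 2 were higher and 1 lower. Cand2, the relative of Cand1, was 2.29-fold higher (1.96 to 2.69) at 13.5 and 30.9 CPM, and Nub1, whose protein sends NEDD8 to the proteasome, was 1.74-fold higher (1.65 to 1.84) at 128 and 223 CPM. Exons of Nub1 overlap other genes over 16.3% of their length. Tceb3, the elongin A gene, was 1.63-fold lower (1.52 to 1.75).

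Of 56 other F-box genes 9 were higher and 3 lower. Ccnf, the gene of cyclin F, was 2.95-fold lower (2.498 to 3.502) at 36.3 and 12.3 CPM, followed by Fbxw8, and Fbxo41 had 27 and 5 counts, 4.34-fold lower (1.65 to 14.4). The highest 3 were genes of few counts. Fbxo2 had 0 and 24 counts, 9.96-fold higher if the wild-type count is taken as 3, the limit set here for a count of 0. That value leaves out the counting error of the knockout count and is not the lower end of an interval, so the fold can be smaller. Fbxo39 had 4 and 36 counts, 11.2-fold higher (4.02 to 43.4), and Fbxw10 33 and 99 counts, 3.74-fold higher (2.497 to 5.72).

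Receptors of the CUL4 ligases had the highest median of the 5 lists, a log2 ratio of 0.33 over 20 genes with 14 above 0, although 0 passed the rule as higher. The 1 lower gene was Dtl, which directs CUL4 to replication licensing factors during DNA synthesis, 1.78-fold lower (1.59 to 1.997) at 52.9 and 29.8 CPM. Of 50 BTB adaptors of CUL3, 7 were higher and 5 lower. Kbtbd11 was the most abundant of them by CPM, at 476 and 1061 CPM, 2.23-fold higher (2.17 to 2.29), with 24.8% of its exon length overlapped by other genes. Kctd13, an adaptor for RhoA, was 2.05-fold (1.81 to 2.33) and Klhl3, which targets WNK kinases, 2.15-fold higher (1.74 to 2.66). Kctd17 was 3.66-fold lower (2.94 to 4.59), Kctd11 had 56 and 7 counts, 6.42-fold lower (2.92 to 16.7), and Kbtbd6 had 39 and 5 counts, 6.26-fold lower (2.47 to 20.4).

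Of 27 receptors of CUL2 and CUL5, 3 were higher and 2 lower. Zer1, a CUL2 receptor, was 2.48-fold higher (2.33 to 2.63) at 89.96 and 223 CPM. Spsb1 was 2.57-fold (2.14 to 3.100) and Asb13 2.05-fold higher (1.84 to 2.29). Asb2 was 1.95-fold lower (1.59 to 2.399) at 18.4 and 9.42 CPM, and Lrr1, a CUL2 receptor that acts at replication forks, had 78 and 24 counts, 2.61-fold lower (1.63 to 4.31). Skp2, Ccnf, Dtl and Lrr1, which act in the cell cycle or DNA replication, were all lower in the library in which 16 of 16 cell division genes were lower. They were grouped after these values were seen, from genes already counted as lower, so their shared direction is not a result. Fbxw7, whose protein targets cyclin E, was not lower by the rule (ratio 0.954, 0.842 to 1.08). The part of the cell division genes' difference in Skp2, Ccnf, Dtl and Lrr1 was not tested.

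**Figure D5:**
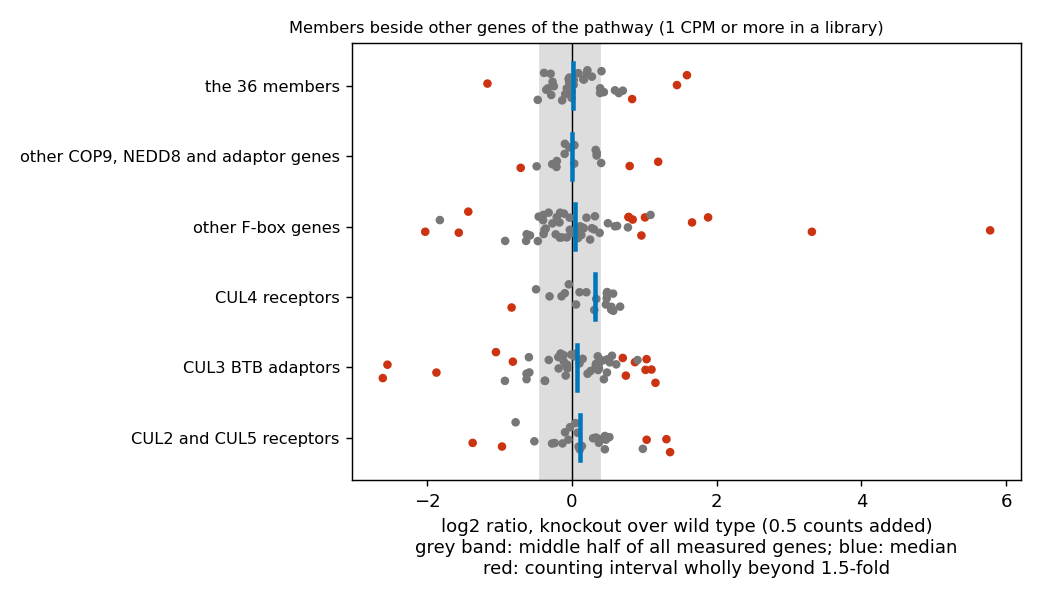
log2 ratio (knockout over wild type) for the 36 members and for 5 lists of other pathway genes at 1 CPM or more, each point a gene, with the median in blue and genes past the 1.5-fold rule in red. The grey band runs between the quartiles of all 13464 genes, -0.44 and 0.39, and the point of Fbxo2 at the far right, with 0 wild-type counts, is set by the 0.5 counts added.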

How the data were processed

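RNA of the 2 samples, isolated with Trizol, went through the unstranded TruSeq RNA v2 protocol and was sequenced on an Illumina HiSeq, per the labels. TopHat and HTSeq were used with mm10, per the submitters' processing notes. Their versions, the annotation and the strand setting have no entry in those notes. The deposited tables hold, per the file headers, a whole-number read count and an FPKM value per gene name. The FPKM values follow from the deposited counts, since FPKM divided by count stood in 1 proportion between the libraries, 1.25, over 10504 genes with more than 50 counts in both, which is the proportion of their totals.

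Counts were scaled with TMM in edgeR 4.0.16 (R 4.3.3). No model was fitted. Ratios have exact 95% conditional-binomial (Clopper-Pearson) intervals, shifts between pairs Poisson intervals on the log scale, and log2 ratios 0.5 added counts. Intervals, and the limit of 3 counts set for a count of 0 (0.166 CPM for wild type, 0.206 CPM for knockout), cover counting error only. They take each read as independent, while PCR copies of 1 molecule are counted apart, so they can be too narrow even for that error. Samples were grouped by title. The calculations (Python 3.11.15, numpy 2.4.6, scipy 1.17.1, pandas 2.3.3) were tested on simulated data. Coordinates and exon overlap come from GENCODE M21 with bedtools 2.31.1, and promoters from RefSeq. Exons of 5 of the 36 genes (Ddb1, Fbxo7, Keap1, Cops3 and Nedd8) overlapped another gene over more than 5% of their length. All rows had a gene name.

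The 36 genes, the lists of other genes and the rules were chosen with earlier results of these data known. Named genes were all 36 members, Psmd14, Cops5, Cops6, Ube2m, Ube2f, per list of other genes up to 3 higher and 3 lower past the 1.5-fold rule ordered by the end of the interval closer to 1, and the most abundant gene of a marker list. Other markers, Obsl1, Ccdc8 and the genes between Cul7 and Cul9 were named after their values were seen. Alternatives were other scalings, folds, CPM minimums and added counts, FPKM in place of counts, and, added after the data were seen, GENCODE lengths and leaving out members that overlap another gene.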

Additional observations from a re-analysis of the deposited data

How the results depend on the processing

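No paired analysis was possible because there was 1 library per genotype, and no library could be left out. Over the planned and added alternatives, 180 of 180 single-gene ratios counted as unchanged, and 70 of 88 group, pair, count and level-order values. Ratios and shifts had to stay within their counting interval, and counts within 1.5 times the count. A group median had to keep its sign and stay between the medians of its members' interval ends. A level order had to keep every place. Part of these tallies was fixed in advance. FPKM follow from the counts, so the FPKM alternative, the only one run for the pairs, could not move a shift. For single-gene ratios it moved log2 values by at most 0.003, and total-count scaling by at most 0.0008. Members higher numbered 3, and 6 with the interval beyond a 25% increase or with the ratio itself beyond 1.5-fold. Members lower numbered 1, and 2 with the interval beyond a 20% decrease and 0 beyond 2-fold. The other pathway genes higher numbered 21, with 33 at a 25% increase and 6 at 2-fold, and those lower 12, with 23 at a 20% decrease, 5 at 2-fold and 22 by the ratio itself. These shifts follow from the rules' own strictness. The median log2 ratio of the substrate receptors, -0.02, turned to 0.019 with upper-quartile scaling, which moved the libraries by 0.04 on the log2 scale, and the log2 ratios of Cul2, Cul5, Skp1a and Cops7a changed sign with it. That of Dcaf7 changed sign with RLE scaling, which moved log2 ratios by up to 0.0065. Each of these log2 ratios was smaller in size than the shift of the scaling that changed its sign. With GENCODE lengths in place of those behind the FPKM, the level order moved for 2 cullins in the wild-type library, 2 RING subunits and adaptors in the knockout library, 3 and 2 receptors, 2 and 2 COP9 genes and 5 and 5 NEDD8 pathway genes in the wild-type and knockout library. Depth limits the ratios of Senp8, Obsl1 and Ccdc8.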
